A study of Mus musculus with 12 samples.

Results

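The colon of Parp1-/- mice was compared with the colon of wild-type mice after both had drunk dextran sulfate sodium (DSS), which damages the colon epithelium and brings on colitis. The comparison took the 6 arrays, of 12 in the study, whose labels gave DSS as the treatment. Each array's title carries a number of its own, taken here as 1 mouse, although nothing states that the samples came from separate animals, so a p-value measures only the spread between these samples. The labels put 3 of them in wild-type DSS and 3 in Parp1-/- DSS. Both groups were 6 to 8 weeks old, lived in a conventional facility that was screened for mouse pathogens, and had 4% DSS in their water for 7 days, so they differed by label in genotype alone. Parp1-/- stands for mice that carry no working copy of Parp1. The strain, the sex, the altered part of the Parp1 locus and whether the wild-type mice were littermates stand in none of the sources used. RNA came from the whole colon, so epithelium, immune cells, muscle, nerve and fat attached to the wall all contribute to each value. The 6 water arrays entered no difference reported here, although each probe set had been centred on its median over all 12 arrays.

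PARP1 binds broken DNA and uses NAD to build chains of ADP-ribose on itself and on nearby proteins, which draws repair factors to the break. It also acts as a cofactor of inflammatory transcription, that of NF-kappaB among others, and its strong activation can drain a cell of NAD. In DSS colitis the damaged epithelium lets bacteria reach the wall, neutrophils and monocytes enter, interferons and interleukins are made, and the epithelium repairs itself from its crypts. By its title, the study asked how loss of Parp1 alters that injury and the genes expressed in it.

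Each value below is a log2 value of a gene relative to the median of its probe sets over the study, which allows a gene to be set against itself across arrays but not against another gene. For the same reason the tissue label could not be checked against absolute levels of colon markers. When 3 values are given for a group they belong to its mice 1, 2 and 3 in that order. A difference is the mean of Parp1-/- DSS minus the mean of wild-type DSS, given with its standard error in limma (n = 3 arrays per group). A gene was called where limma's adjusted p, by Benjamini-Hochberg over 21314 genes, was under 0.05. Groups are said not to overlap when all arrays of one lay above all arrays of the other.

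No gene was called. Of 21314 genes, 0 (0%) had a limma adjusted p under 0.05, the smallest being 0.887, so no difference in the following paragraphs passed the test and each is given as a measured value. At an unadjusted limma p under 0.05 there were 135 genes higher in Parp1-/- DSS (0.633%) and 149 lower (0.699%). The groups did not overlap for 434 genes that were higher (2.04%) and 963 that were lower (4.52%), and 51 higher (0.239%) and 18 lower genes (0.0845%) also differed by at least 1. Of all genes, 50.4% had a difference above 0 and 49.6% below 0. These shares, with 2.04% and 4.52% without overlap, are the background for each list count from 6 arrays below. Fits after quantile normalization, with trended and robust variances or with 12 arrays in 4 groups also called 0 genes, with 726, 226 and 593 genes at an unadjusted p under 0.05. With each array left out in turn, limma called 0 genes as well, and the genes at an unadjusted p under 0.05 numbered 468, 148 and 3623 on dropping wild-type DSS 1, 2 or 3 and 128, 282 and 90 on dropping Parp1-/- DSS 1, 2 or 3. Among the settings run, limma's array weights alone gave calls, 5164 genes, and their estimation did not converge, with a weight of 182 on wild-type DSS 2 and of 0.0673 on the lowest array. Weights estimated gene by gene gave 0 calls, with 3975 genes at an unadjusted p under 0.05.

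A pair of arrays stood apart from the other 4. In wild-type DSS 1 the SD over all probe sets was 0.833, against 0.257 to 0.393 elsewhere. Housekeeping genes, 15 of 20 measured, had a mean of -1.09 there and of 0.02 to 0.43 in the other arrays. Receptor genes of smell and pheromones, 1056 in number, had a median of 0.384 there and -0.0979 to 0.0504 elsewhere. Parp1-/- DSS 1 had smooth muscle genes at a list mean of 2.20, against -0.15 to 0.01 in the other 5 arrays. The labels give no reason for either. List medians are therefore given with all 6 arrays, mostly also without wild-type DSS 1, and some also without Parp1-/- DSS 1. Many single genes are given with all 6 arrays alone, and such a value can rest largely on wild-type DSS 1. Without that array Ikbke went from 0.88 to 0.26, Mdm2 from 0.97 to 0.32, Neil1 from 0.66 to 0.23 and Sod1 from 0.66 to 0.26. Other differences grew, as that of Scd1 did from 1.27 to 1.60. Without wild-type DSS 1 limma again called 0 genes, and the groups did not overlap for 1194 higher (5.60%) and 1708 lower genes (8.01%). Without both arrays those counts were 2164 (10.2%) and 3520 (16.5%), with 491 genes at an unadjusted p under 0.05 and none called. Groups that do not overlap stay so when arrays are dropped, so such counts can only rise with fewer arrays. A rise is therefore no sign of a clearer difference. The part of these arrays in a result was not tested beyond those values. List medians near 0 are loose in this design: those of the PARP, base excision repair, NAD, MHC, antimicrobial, B cell, stem cell, tuft, endothelium, clock, cytochrome and ribosomal lists moved by over 1.5 times or turned sign with at least 1 array left out.

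**Figure D1:**
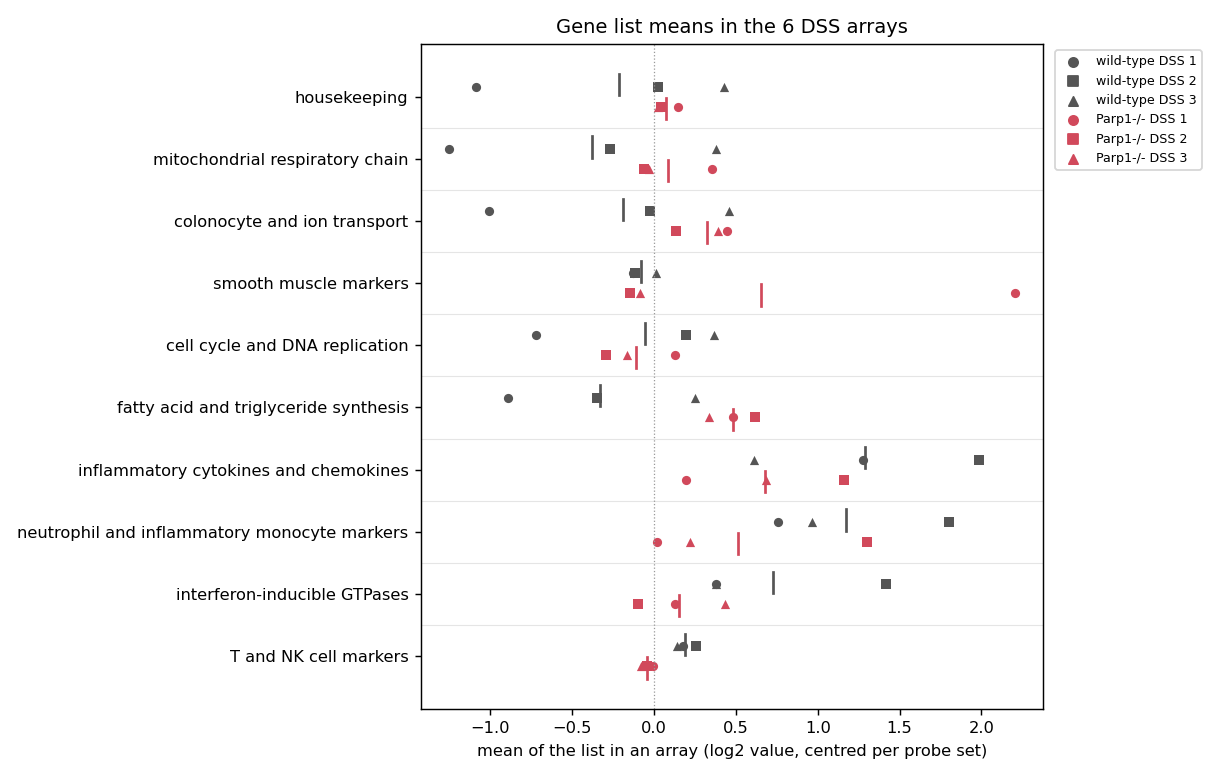
Mean of 10 gene lists in each of the 6 DSS arrays (x axis, log2 value centred per probe set), grey for wild type and red for Parp1-/-, with a vertical bar at each group's mean. Wild-type DSS 1 lies lowest for housekeeping genes, at -1.09, and Parp1-/- DSS 1 highest for smooth muscle, at 2.20, while the means of T and NK cell markers and of fatty acid synthesis genes do not overlap between genotypes.

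Parp1 was at 0.01, 0.51 and 0.77 in wild-type DSS and at -0.22, -0.09 and 0.03 in Parp1-/- DSS. Parp1-/- DSS 3 thus lay just above wild-type DSS 1, and the groups overlapped through those arrays alone. The difference was -0.52 ± 0.23, with a limma adjusted p of 0.887 and a two-sided exact permutation p of 0.2, where 3 against 3 mice cannot go below 0.1. It was -0.73 ± 0.15 without wild-type DSS 1, where the groups did not overlap. The sources do not place the probes against the altered stretch of the gene, so it is a weak check of the labels.

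The other genes of the PARP family differed in both directions. Of 19 measured genes that make, bind or remove ADP-ribose, 14 had a difference above 0, with a list median of 0.12, against 0.0021 over all genes. On leaving out wild-type DSS 1, the median was -0.10 and 5 of the 19 were above 0, so the sign turned with that array. Parp8, whose product adds single ADP-ribose units, was the 1 member whose groups did not overlap, at 0.03, 0.57 and 0.06 in wild type and 0.02, -0.29 and -0.02 in Parp1-/-, a difference of -0.32 ± 0.21. Parp16, a family member of the endoplasmic reticulum, differed by 0.61 ± 0.36 with all arrays and by 0.25 ± 0.24 without wild-type DSS 1. Parp2, the closest relative of Parp1 in DNA repair, differed by 0.08 ± 0.33 and -0.26 ± 0.22 in the same order, and the interferon-induced Parp14 by 0.12 ± 0.46 and -0.42 ± 0.17.

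Base excision repair, the pathway that PARP1 serves, had a list median of 0.01 over 19 measured genes, and of -0.13 without wild-type DSS 1. Its 1 member without overlap was Ung, the glycosylase that removes uracil from DNA, at 0.25, 0.25 and 0.13 in wild type and at -0.30, -0.15 and -0.29 in Parp1-/-. All 3 Parp1-/- arrays lay below all 3 wild-type arrays by at least 0.28, and the difference was -0.46 ± 0.14, with an unadjusted limma p of 0.0154. Neil1, a glycosylase for oxidised bases, differed by 0.66 ± 0.40. Xrcc1, the scaffold that PARP1 recruits to single-strand breaks, differed by -0.20 ± 0.21, and Pcna, the sliding clamp of replication and repair, by 0.60 ± 0.49, or 0.03 ± 0.21 without wild-type DSS 1. NAD genes, 21 measured, had a median of 0.08, or 0.03 without wild-type DSS 1. Nampt, the rate-limiting enzyme of NAD salvage, differed by -0.02 ± 0.36, and Qprt, of the tryptophan route, by 0.30 ± 0.20. Bst1, an enzyme that consumes NAD on myeloid cells, differed by -0.89 ± 0.48, Sarm1, a NAD-cleaving enzyme of neurons, by 0.29 ± 0.16 with groups that did not overlap, and Ido1, which opens the tryptophan route, by -0.81 ± 0.81, or -1.68 ± 0.52 without wild-type DSS 1.

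The genes of fatty acid and triglyceride synthesis formed the list with the most members higher without overlap. This pathway makes fat from citrate: Acly forms acetyl-CoA, Acaca forms malonyl-CoA, Fasn builds the chain with NADPH that Me1 supplies, Elovl6 lengthens and Scd1 desaturates it, and Dgat2 completes the triglyceride. Of 20 measured members, 19 were above 0 with all arrays, beside 50.4% of all genes, with a list median of 0.77. For 7 of them the groups did not overlap, all higher in Parp1-/- DSS, beside 2.04% of all genes. On leaving out wild-type DSS 1, the median was 0.36, 17 of 20 were above 0 beside 49.9% of all genes, and 7 members were higher without overlap, beside 5.60% of all genes. Without Parp1-/- DSS 1 as well, the median was 0.29 with 7 members higher without overlap, beside 10.2%.

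Fasn, the fatty acid synthase, was at -1.20, -0.52 and 0.10 in wild-type DSS and at 0.98, 2.02 and 1.23 in Parp1-/- DSS. The lowest Parp1-/- array lay 0.88 above the highest wild-type array. The difference was 1.95 ± 0.41, with an unadjusted limma p of 0.00258, and 1.62 ± 0.37 without wild-type DSS 1. On a base 2 scale this is 3.86-fold. Me1, the cytosolic malic enzyme, was at -0.76, -0.48 and -0.14 and 0.72, 1.04 and 0.24 in the same order, a difference of 1.13 ± 0.27. Acaca, acetyl-CoA carboxylase, was at -0.42, -0.39 and -0.18 and 0.45, 1.32 and 0.37, a difference of 1.04 ± 0.28. For each of these enzymes the highest array was Parp1-/- DSS 2 and the lowest was wild-type DSS 1.

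Pnpla3, a lipid droplet hydrolase induced with lipogenesis, was at -0.65, -0.41 and 0.07 in wild type and 0.33, 1.29 and 0.91 in Parp1-/-, a difference of 1.17 ± 0.31. Thrsp, the spot 14 protein that goes with lipogenic tissue, was at -0.52, -0.46 and 0.01 and 0.33, 1.17 and 0.51, a difference of 0.9998 ± 0.27. Acly, ATP citrate lyase, was at -1.40, -0.57 and -0.03 and 0.29, 0.51 and 0.34, a difference of 1.05 ± 0.34. In all 3 genes Parp1-/- DSS 2 was again the highest array. Scd1, the stearoyl-CoA desaturase, differed in its wild-type order, with wild-type DSS 1 the highest of its group: it was at 0.49, -1.14 and 0.12 in wild type and 0.82, 1.52 and 0.95 in Parp1-/-. Its difference was 1.27 ± 0.44, and 1.60 ± 0.42 without wild-type DSS 1.

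The regulators of the pathway differed less. Srebf1, the transcription factor that insulin and sterol signals act through, differed by 0.52 ± 0.29 with groups that overlapped, and Mlxipl, the carbohydrate-sensing factor ChREBP, by 0.23 ± 0.23. Several members drew their size from wild-type DSS 1: Elovl6 differed by 1.65 ± 0.86 with all arrays and 0.66 ± 0.41 without it, Dgat2 by 1.23 ± 0.58 and 0.66 ± 0.43, and Dgat1 by 0.64 ± 0.50 and 0.04 ± 0.18. Fads1, the delta-5 desaturase, was the 1 member below 0, at -0.08 ± 0.29. Pcx, pyruvate carboxylase, which refills the citrate that lipogenesis draws on and which was no member of the list, was at -1.60, -0.87 and 0.28 in wild type and 0.80, 0.92 and 0.92 in Parp1-/-, a difference of 1.61 ± 0.45.

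**Figure D2:**
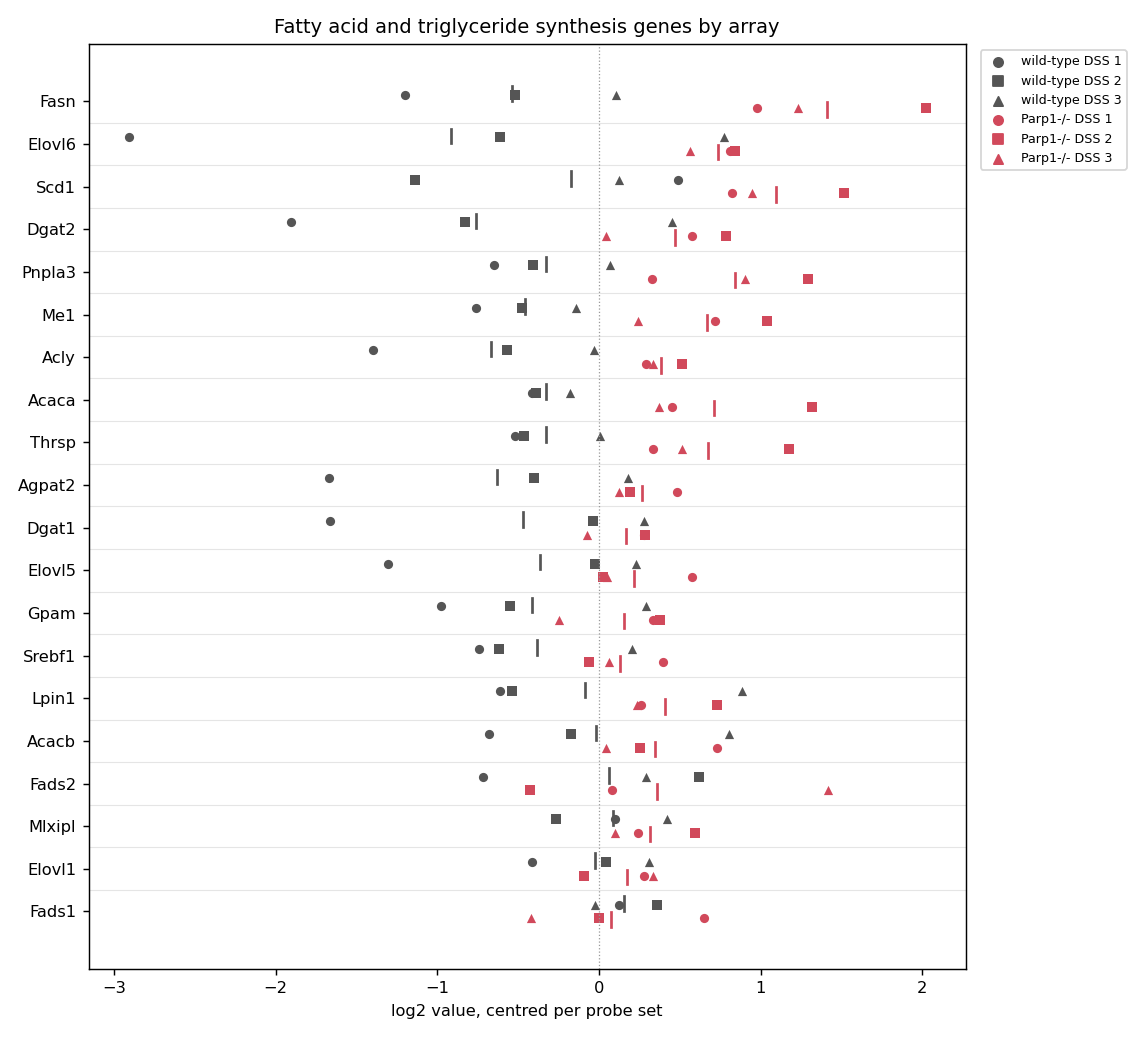
Values of the 20 measured genes of fatty acid and triglyceride synthesis in the 6 DSS arrays (x axis, log2 value centred per probe set), ordered by their difference, grey for wild type, red for Parp1-/-, vertical bars for group means. In 7 genes, led by Fasn, all red points lie to the right of all grey points, and for many others wild-type DSS 1 is the far left point.

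Fat cells of the outer colon wall also express these enzymes, and in whole tissue fewer cells of a type cannot be told apart from less RNA per cell, here or in any list below. Adipocyte markers, 14 of 17 measured, had 10 members above 0 and a median of 0.27. With wild-type DSS 1 left out 13 of the 14 were above 0, beside 49.9% of all genes, with a median of 0.21, and without Parp1-/- DSS 1 as well the median was 0.21. Their list mean was 0.23, -0.54 and 0.61 in the wild-type arrays and 0.32, 0.76 and 0.21 in the Parp1-/- arrays, so the groups overlapped. Scd1, shared with the synthesis list, was the 1 marker without overlap. Adipoq, the adiponectin gene that defines fat cells, was at -0.04, -0.65 and 0.51 in wild type and 0.42, 0.66 and -0.12 in Parp1-/-, and the perilipin gene Plin1 at 0.09, -0.65 and 0.24 and 0.31, 1.14 and 0.24. Wild-type DSS 2 was the lowest array for Fabp4, Plin1, Adipoq and Scd1, and Parp1-/- DSS 2 the highest. Fabp4, the fatty acid-binding protein of fat cells, differed by 1.33 ± 0.76. The list median was 0.08 with wild-type DSS 2 left out, 0.65 with wild-type DSS 3 left out, 0.13 with Parp1-/- DSS 2 left out and 0.42 with Parp1-/- DSS 3 left out. Their part in the values of the synthesis genes was not tested. Sncg, a synuclein abundant in fat and nerve, and Aoc3, an amine oxidase of fat and smooth muscle, were named by the fit without wild-type DSS 1, where they differed by 1.05 ± 0.26 and 1.04 ± 0.37.

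Promoter sequence was set beside these values for the CCAAT box, a short element common in housekeeping and lipogenic promoters, searched as CCAAT on both strands. RefSeq promoters of 250 bases before to 50 bases after the gene start (GRCm38.p6) were held for 16 of the list's genes, as 22 promoters. Of these, 12 held the box (54.5%), against 37.4% of all 32851 promoters in the table. The sterol regulatory element core TCACNCCAC was in 1 of the 22 (4.55%, against 1.24%) and the E-box CACGTG in 2 (9.09%, against 7.15%). None of these was particular to this list. The cholesterol synthesis list, described below, held the CCAAT box in 13 of 16 promoters (81.2%), the sterol element in 6.25% and the E-box in 25.0%. Windows of 30 bases are shown for 4 members of the fatty acid list whose groups did not overlap. The box is in capitals, as CCAAT or as its reverse complement ATTGG. Fasn is on the minus strand at chr11:120824620-120824649, Thrsp on the minus strand at chr7:97417612-97417641, Pnpla3 on the plus strand at chr15:84167705-84167734 and Me1 on the minus strand at chr9:86687468-86687497.
Fasn: ccgcgcgccgccATTGGgccaccgagaacg
Thrsp: ccaaacgctgggATTGGctcaaaacagggc
Pnpla3: tccagtacgcccATTGGgcctcccactggc
Me1: gcctcacatggtATTGGtattttgcacata
These matches describe the sequences and say nothing of which factor acts there.

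Other routes of lipid metabolism depended on wild-type DSS 1. Cholesterol synthesis had 16 of 17 measured members above 0 and a median of 0.41, which became 0.05 without that array, and no member was without overlap in either fit. Insig1, the sterol sensor's anchor, Fdft1, squalene synthase, and Sc5d, a late desaturase, differed by 0.83 ± 0.46, 0.66 ± 0.39 and 0.74 ± 0.46, and by 0.33 ± 0.25, 0.34 ± 0.35 and 0.22 ± 0.22 without wild-type DSS 1. Fatty acid oxidation and ketogenesis had 18 of 19 above 0 and a median of 0.55, which became 0.05, again with no member without overlap. Its coactivator Ppargc1a differed by 0.52 ± 0.27 and Acadm, the medium-chain acyl-CoA dehydrogenase, by 0.78 ± 0.46, or 0.28 ± 0.26 without wild-type DSS 1. The respiratory chain showed the same dependence, with a median of 0.54 over 24 genes, 0.01 without wild-type DSS 1 and -0.13 without both arrays. Its Cyc1, cytochrome c1, went from 1.07 ± 0.62 to 0.46 ± 0.46, and Atp5a1, a subunit of the ATP synthase, from 0.80 ± 0.49 to 0.26 ± 0.26. Leaving out wild-type DSS 3 moved them the other way: without it the cholesterol, oxidation and respiratory medians were 0.80, 0.93 and 0.90, and without Parp1-/- DSS 1 that of oxidation was 0.34. The proteasome core had 0.27 over 22 genes, -0.12 without wild-type DSS 1, 0.68 with wild-type DSS 3 left out, 0.41 with wild-type DSS 2 left out and 0.44 with Parp1-/- DSS 2 left out.

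Antimicrobial effectors were mixed, with 9 of 20 measured members above 0 and a median of -0.07. The groups did not overlap for 3 lower members, Nos2, Lcn2 and Reg3a, and for 1 higher member, Slpi, beside 4.52% and 2.04% of all genes. Nos2, the inducible nitric oxide synthase, was at 2.15, 3.12 and 2.30 in wild type and 1.07, 1.06 and 1.80 in Parp1-/-. All 3 Parp1-/- arrays lay below the wild-type range by at least 0.35, and the difference was -1.22 ± 0.33, with an unadjusted limma p of 0.00974. Lcn2, the lipocalin that withholds iron from bacteria and serves as a marker of colitis, was at 1.52, 1.86 and 2.31 and 0.08, 1.49 and -0.08, a difference of -1.40 ± 0.45. Parp1-/- DSS 2 came within 0.04 of the lowest wild-type array, while the other 2 Parp1-/- arrays lay more than 1 below it.

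Slpi, the secreted inhibitor of leukocyte elastase, lay the other way, at -0.37, -0.09 and 1.97 in wild type and 2.48, 2.11 and 2.82 in Parp1-/-, a difference of 1.97 ± 0.62. Only wild-type DSS 3 came near the Parp1-/- range. The C-type lectin Reg3a differed by -0.65 ± 0.28. Without wild-type DSS 1 the median was -0.24, and 9 members were lower without overlap, against 8.01% of all genes, with Slpi the 1 higher member. Among those that joined were the lectins Reg3b at -1.04 ± 0.55 and Reg3g at -0.58 ± 0.22 and the goblet cell product Retnlb at -2.20 ± 0.75. Retnlb was at -0.12, 1.90 and 2.36 in wild type and 1.38, -1.09 and -0.49 in Parp1-/-, so wild-type DSS 1 fell inside the Parp1-/- range.

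Neutrophil and inflammatory monocyte genes were lower in Parp1-/- DSS for 17 of 19 measured members, beside 49.6% of all genes, with a list median of -0.70. For 4 the groups did not overlap in that direction, namely Mmp8, Stfa2l1, Lcn2 and Camp, and for 1, Ly6g, in the other, beside 4.52% and 2.04% of all genes. Of these, Camp differed by only -0.10, and Lcn2 was also counted among the antimicrobial effectors above. The neutrophil collagenase Mmp8 was at 1.15, 2.70 and 1.98 in wild type and -0.10, 1.14 and -0.08 in Parp1-/-, a difference of -1.63 ± 0.50. Stfa2l1, a stefin of neutrophils, was at 1.26, 1.91 and 0.71 and -1.11, 0.66 and -0.74, a difference of -1.68 ± 0.52. In these genes Parp1-/- DSS 2 lay only 0.01 and 0.04 below the wild-type range, and Parp1-/- DSS 1 and 3 were far below. Ly6g, the surface antigen by which mouse neutrophils are defined, was higher in every Parp1-/- array, at 0.21, 0.32 and 0.45 in wild type and 1.24, 0.74 and 1.60 in Parp1-/-, a difference of 0.87 ± 0.24, so the list's members did not all point one way. Ly6c2, a gene of the Ly6C antigen of inflammatory monocytes, also had a difference above 0, at 0.80, or 0.33 without wild-type DSS 1. Its sign was kept with each array left out in turn.

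The calprotectin genes S100a8 and S100a9 differed by -0.65 ± 0.45 and -0.53 ± 0.27, the resistin-like Retnlg by -1.30 ± 0.74 and the chemokine receptor Cxcr2 by -0.70 ± 0.68, all with overlap. S100a8 was at 0.19, 1.32 and 1.41 in wild type and 0.02, 1.06 and -0.13 in Parp1-/-, with Parp1-/- DSS 2 within the wild-type range. On leaving out wild-type DSS 1, the list median was -0.95, and 7 members were lower and 1 higher without overlap, against 8.01% and 5.60% of all genes. Ngp, the neutrophilic granule protein, then differed by -1.16 ± 0.23. The median was -0.31 with wild-type DSS 2 left out, -0.41 without Parp1-/- DSS 1 and -1.09 with Parp1-/- DSS 2 left out, so its size rested on several arrays while its sign was kept when each array was left out in turn.

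Fcgr4, an activating receptor for IgG on neutrophils and monocytes that was no member of the list, was at 0.88, 2.18 and 0.34 in wild type and at -0.49, -0.29 and -0.44 in Parp1-/-. Its Parp1-/- values lay close together, and 0.63 below the lowest wild-type value, with a difference of -1.54 ± 0.45. Ms4a18, of a family of membrane proteins found on leukocytes and epithelium, was at 1.03, 1.84 and 2.13 and 0.72, 0.47 and -0.65, a difference of -1.49 ± 0.44. Orm1, the acute-phase protein orosomucoid, was in contrast at -0.12, -1.01 and 0.02 in wild type and 0.47, 1.35 and 1.03 in Parp1-/-, a difference of 1.32 ± 0.35. On leaving out wild-type DSS 1, the fit also named Ifitm6, of an interferon-induced membrane protein family, at -1.48 ± 0.25, the Ly6 family gene Ly6f at -1.32 ± 0.27 and Ms4a4a at -1.43 ± 0.37.

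**Figure D3:**
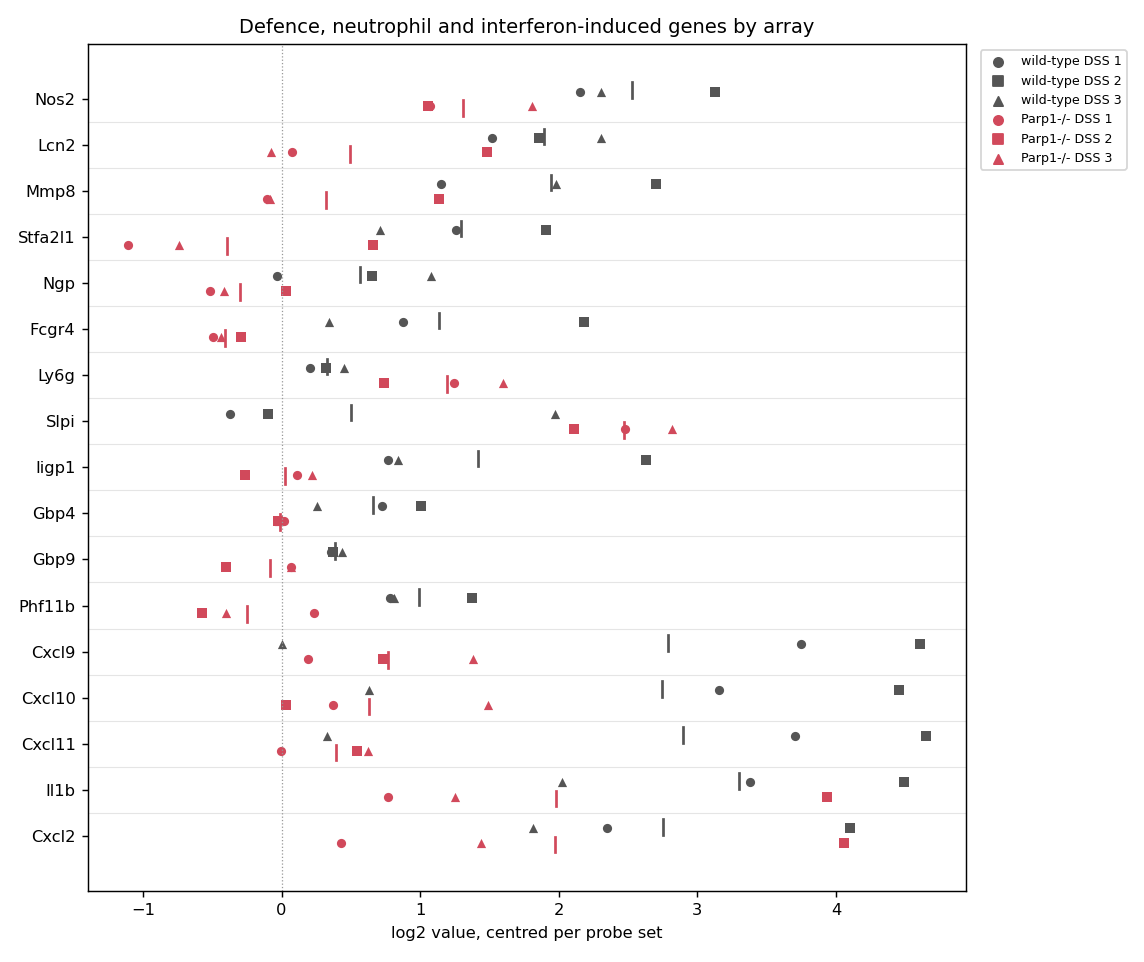
Values of 17 defence, neutrophil and interferon-induced genes in the 6 DSS arrays (x axis, log2 value centred per probe set), grey for wild type, red for Parp1-/-, vertical bars for group means. Nos2, Fcgr4, Iigp1, Gbp4, Gbp9 and Phf11b have every red point to the left of every grey point, Ly6g and Slpi have it to the right, and the chemokines Cxcl9 to Cxcl11 spread over more than 3 within wild type.

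Cytokines and chemokines were lower in Parp1-/- DSS for 18 of 24 measured members, beside 49.6% of all genes, with a median of -0.36. The groups overlapped for all but 1 of the 24, beside 4.52% of all genes lower without overlap. The chemokines that interferon-gamma induces were high in 2 wild-type mice only. Cxcl10 was at 3.15, 4.45 and 0.63 in wild type and 0.37, 0.03 and 1.49 in Parp1-/-, Cxcl11 at 3.71, 4.65 and 0.33 and -0.0039, 0.55 and 0.63, and Cxcl9 at 3.74, 4.60 and 0.01 and 0.19, 0.73 and 1.38. Wild-type DSS 3 lay within or below the Parp1-/- range for all 3, and the differences were -2.12 ± 0.96, -2.50 ± 1.05 and -2.02 ± 1.15. Il1b was at 3.38, 4.49 and 2.03 in wild type and 0.77, 3.93 and 1.25 in Parp1-/-, with Parp1-/- DSS 2 above 2 of the wild-type arrays. The chemokine Ccl3 was also highest in mouse 2 within Parp1-/-, at 0.54, 4.60 and 0.45, against 3.73, 4.65 and 2.27 in wild type.

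Ccl8, a chemokine for monocytes, was that member, at 0.70, 0.02 and 0.53 in wild type and -0.03, -0.09 and -0.03 in Parp1-/-, a difference of -0.47 ± 0.21. Tnf differed by -0.26 ± 0.73 with all arrays and by -1.06 ± 0.43 without wild-type DSS 1, where its groups did not overlap, but by 0.48 with wild-type DSS 2 left out. Cxcl5, a neutrophil chemokine of epithelium, lay on the other side, at 0.94 ± 0.56. The list median was -0.50 without wild-type DSS 1, -0.17 with wild-type DSS 2 left out and -0.20 without Parp1-/- DSS 1. NF-kappaB subunits and their feedback inhibitors had 15 of 18 above 0 and a median of 0.34, which became 0.02 without wild-type DSS 1, 0.52 with wild-type DSS 2 left out and 0.60 with wild-type DSS 3 left out. Rela, the main activating subunit, differed by 0.29 ± 0.37, and by -0.13 ± 0.14 without wild-type DSS 1. Nfkbia, the inhibitor that NF-kappaB itself induces, differed by 0.22 ± 0.40 and -0.18 ± 0.27 in the same order. The c-Rel gene, Rel, differed by 0.69 ± 0.36 and the kinase gene Ikbke by 0.88 ± 0.60, while Traf1 was the 1 member without overlap, at 0.32 ± 0.15.

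Interferon-inducible GTPases, which attack the vacuoles of intracellular microbes, were lower in Parp1-/- DSS in all 12 measured members of 16 listed, beside 49.6% of all genes below 0. Their median was -0.48, with 3 members, Gbp4, Iigp1 and Gbp9, lower without overlap, beside 4.52% of all genes. Iigp1 was at 0.77, 2.63 and 0.84 in wild type and 0.11, -0.26 and 0.22 in Parp1-/-, a difference of -1.39 ± 0.51. Gbp4 was at 0.72, 1.0033 and 0.26 and 0.02, -0.02 and -0.02, a difference of -0.67 ± 0.22, and its Parp1-/- values lay close to each other. The third, Gbp9, was at 0.36, 0.37 and 0.44 and 0.07, -0.40 and 0.07, a difference of -0.47 ± 0.18. Wild-type DSS 2 was the highest array for 10 of the 12 members, and without it the median was -0.16. Without wild-type DSS 1 the median was -0.67, with all 12 below 0 and 5 members lower without overlap, beside 8.01% of all genes in that fit. The added ones were Gbp8 at -0.66 ± 0.14 and Irgm1 at -0.91 ± 0.21. Igtp, Irgm2, Gbp5 and Gbp7 differed by -0.88 ± 0.55, -0.54 ± 0.56, -0.68 ± 0.59 and -0.26 ± 0.49 with groups that overlapped, and Gbp10 by -0.37. With wild-type DSS 2 left out, Gbp7 and Gbp10 were at 0.17 and 0.10, and Irgm2 and Gbp5 at -0.01 and -0.08. The guanylate-binding protein genes are close paralogs, as are Igtp, Irgm1 and Irgm2, and no source used here says how well the probe sets separate them.

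Interferon-activated factors bind a response element in the promoters of many of their targets, and its windows are shown because most of the members found in the sequence table hold it. The core of that element was searched on both strands as a pair of GAAA blocks with 2 bases of any kind between them, where overlapping copies count as 1 promoter. It was in 6 of 7 promoters of the 6 members in the RefSeq table (85.7%), against 3.44% of all 32851 promoters of the same length and 47.4% of 19 promoters of the type I interferon list. Members not in the table were Gbp4, Gbp8, Gbp9, Gbp10, Gbp11 and Iigp1. The core is in capitals below, in this form or as the reverse complement, in GRCm38.p6. Igtp lies on the plus strand at chr11:58199512-58199541, Irgm2 on the plus strand at chr11:58214903-58214932 and Irgm1 on the minus strand at chr11:48871425-48871454. Gbp3 is on the plus strand at chr3:142559989-142560018, Gbp5 on the plus strand at chr3:142496759-142496788 and Gbp7 on the plus strand at chr3:142530273-142530302.
Igtp: tctaggaactGAAACTGAAAgctgttcggg
Irgm2: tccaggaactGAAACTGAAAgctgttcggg
Irgm1: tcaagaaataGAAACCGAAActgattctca
Gbp3: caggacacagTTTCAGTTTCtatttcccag
Gbp5: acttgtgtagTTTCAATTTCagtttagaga
Gbp7: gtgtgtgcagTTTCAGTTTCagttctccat
A match is a description of the letters and not of binding.

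Type I interferon response genes were lower for 14 of 21 measured members, with a median of -0.19 and 1 member, the antiviral GTPase Mx1, lower without overlap at -0.26 ± 0.15. The median was 0.01 with wild-type DSS 2 left out and -0.30 without wild-type DSS 1, where 7 members were lower without overlap, against 8.01% of all genes. Of these, Ddx58, which encodes the RNA sensor RIG-I, was at 0.04, 0.89 and 0.39 in wild type and 0.06, -0.04 and -0.07 in Parp1-/-, and differed by -0.66 ± 0.18 in that fit. Usp18, which trims ISG15 and dampens interferon signalling, differed by -0.91 ± 0.21. Ifit1 was at 1.04, 1.22 and 0.63 and 0.10, 0.85 and 0.66, with a difference of -0.43 ± 0.26. Phf11b, a PHD finger gene outside the lists, was at 0.78, 1.37 and 0.81 in wild type and 0.23, -0.57 and -0.40 in Parp1-/-, with all Parp1-/- arrays at least 0.55 lower and a difference of -1.24 ± 0.28.

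Class I antigen presentation had 10 of 15 above 0 and a median of 0.11, turning to -0.14 without wild-type DSS 1. Psme2, a subunit of the proteasome activator PA28, was the 1 member without overlap, at -1.37, -0.89 and -0.51 in wild type and -0.34, 0.04 and 0.01 in Parp1-/-, a difference of 0.82 ± 0.25. Psmb8, an interferon-induced proteasome subunit, differed by -0.26 ± 0.52, and by -0.84 ± 0.28 without wild-type DSS 1, without overlap there, and by 0.20 with wild-type DSS 2 left out. Psmb9, another such subunit, differed by -0.27 ± 0.18. Nlrc5, the transactivator of class I genes, differed by -0.51 ± 0.25. Class II presentation had a median of -0.02 over 13 genes, or -0.17 without wild-type DSS 1, with no member free of overlap. Its costimulatory Cd86 differed by -0.56 ± 0.23, the protease Ctss by 0.66 ± 0.42 and the peptide-loading H2-DMb2 by 0.66 ± 0.46.

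T and NK cell markers were lower in Parp1-/- DSS for 17 of 19 measured members, beside 49.6% of all genes. Their median of -0.25 ranged from -0.27 to -0.20 as each array was left out. Their list mean was 0.17, 0.26 and 0.14 in wild type and -0.01, -0.04 and -0.08 in Parp1-/-, so the means of the list did not overlap. The single differences were small. Gzma, a granzyme of cytotoxic cells, was at 0.49, 0.24 and 0.11 and -0.09, -0.03 and -0.25, a difference of -0.40 ± 0.17, and it was without overlap as were the NK receptor Klrb1c at -0.37 ± 0.18 and the checkpoint receptor Ctla4 at -0.30 ± 0.14. These 3 of 19 members stand beside 4.52% of all genes lower without overlap. Cd3e, a chain of the T cell receptor complex, differed by -0.28 ± 0.24, and by -0.51 ± 0.14 without wild-type DSS 1, where 6 members were lower without overlap, against 8.01% of all genes. Foxp3, which defines regulatory T cells, differed by 0.03 ± 0.19, or -0.08 ± 0.17 without wild-type DSS 1.

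Macrophage markers were lower for 14 of 18, beside 49.6% of all genes, with a median of -0.18. It was -0.28 without wild-type DSS 1, -0.07 with wild-type DSS 3 left out and -0.09 with Parp1-/- DSS 3 left out. Ms4a7 and the high-affinity IgG receptor Fcgr1 were lower without overlap, beside 4.52% of all genes, at -0.56 ± 0.24 and -0.43 ± 0.20. The low-affinity receptor Fcgr3 differed by -0.46 ± 0.21 with overlap. On leaving out wild-type DSS 1, 5 markers were lower without overlap, beside 8.01% of all genes, among them Csf1r, the receptor on which macrophages depend, at -0.44 ± 0.27. B and plasma cell markers had a median of 0.11, or -0.03 with Parp1-/- DSS 3 left out and 0.31 without Parp1-/- DSS 1, and no member without overlap. Cd79a, of the B cell receptor, was at -0.65, 0.16 and -0.54 in wild type and -0.42, 0.06 and 1.93 in Parp1-/-, so Parp1-/- DSS 3 alone lay outside the wild-type range. Its difference was 0.87 ± 0.61, beside 0.78 ± 0.61 for its partner Cd79b and 0.73 ± 0.53 for Xbp1, a factor of plasma cells and other secretory cells.

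Epithelial lists had medians above 0 with all arrays and of 0.18 or less without wild-type DSS 1. Colonocyte and ion transport genes had 22 of 25 above 0 and a median of 0.36, which became 0.01, with no member free of overlap in either case. Scnn1a, a subunit of the sodium channel ENaC, differed by 1.28 ± 0.55, and the sulfate transporter Slc26a2 by 1.06 ± 0.50. Without wild-type DSS 3 the colonocyte, junction and goblet medians were 0.60, 1.09 and 0.40. Tight junction and adhesion genes had 18 of 22 above 0, beside 50.4% of all genes, and a median of 0.63, which became 0.18. Tjp1, the scaffold ZO-1, was at -1.40, -0.25 and 0.37 in wild type and 0.51, 0.52 and 0.9981 in Parp1-/-, without overlap, and differed by 1.10 ± 0.45, or 0.62 ± 0.26 without wild-type DSS 1. Epcam was also higher without overlap, at 0.27 ± 0.18. Cdh1, the gene of E-cadherin, was lower without overlap at -0.68 ± 0.22, but its probe sets disagreed, with differences of 0.57 and -1.94. Over all genes, 2.04% were higher and 4.52% lower without overlap. Goblet cell and mucus genes had 19 of 22 above 0 and a median of 0.22, or 0.01 without wild-type DSS 1. Fcgbp, a mucus gel protein, Muc13, Clca1 and Klk1 were higher without overlap, at 0.99 ± 0.43, 0.46 ± 0.22, 0.39 ± 0.20 and 0.19 ± 0.14, and Tff1 lower at -0.25 ± 0.15, beside 2.04% of all genes higher and 4.52% lower without overlap. Muc2, the main colonic mucin, differed by 0.15 ± 0.16.

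A set of epithelial genes with large differences shared an order among the Parp1-/- mice, chosen after the values were seen. Tgm3, a transglutaminase that cross-links epithelial envelopes, was at -1.68, -2.23 and -1.36 in wild type and 2.04, 0.09 and 3.32 in Parp1-/-, a difference of 3.58 ± 0.78. The sugar-phosphate transporter Slc37a2 was at -1.08, -0.83 and -0.91 and 2.18, -0.14 and 3.45, a difference of 2.77 ± 0.84. Atp12a, the potassium-absorbing proton pump of the distal colon, was at -1.21, -1.03 and 1.06 and 2.57, 0.90 and 3.68, a difference of 2.78 ± 0.87 with overlap. In all 3 genes Parp1-/- DSS 3 was highest and Parp1-/- DSS 2 lowest of its group. Anxa8, an annexin of injured epithelium, kept that order at 1.90, 0.99 and 3.29 in Parp1-/-, against -0.30, 0.44 and 0.68 in wild type, a difference of 1.78 ± 0.59. So did the peptide transporter Slc15a1, at 1.59, 0.88 and 2.26 against -1.36, 0.23 and 0.51, and the folate transporter Slc46a1, at 1.03, 0.32 and 1.72 against -0.74, -0.50 and 0.04.

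The same order within Parp1-/- was measured for Cldn8, a sealing claudin of the distal colon, at 1.88, 1.10 and 2.39, for Insl5, the hormone of distal enteroendocrine cells, at 1.67, 1.02 and 2.93, and for Ly6g and Slpi above. Fasn, Acaca, Scd1, Il1b, Ccl3, Mmp13 and S100a8 had the reverse feature, with Parp1-/- DSS 2 the highest of its group. Differences of 1.59 ± 0.62 for Cldn8 and 1.63 ± 0.65 for Insl5 came with overlap. Aldh1a3, which makes retinoic acid, was at -0.21, 1.34 and 2.48 in wild type and 3.16, 3.37 and 4.26 in Parp1-/-, with every Parp1-/- array above every wild-type array by at least 0.68. Its difference was 2.39 ± 0.68, and 1.68 ± 0.47 without wild-type DSS 1. Cpm, a membrane carboxypeptidase, was at -1.48, -0.64 and -0.54 and 0.17, 0.05 and 0.19, a difference of 1.02 ± 0.27, and Tppp3, a microtubule-binding protein, differed by 1.63 ± 0.50.

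Repair and fetal-like genes had 10 of 16 above 0 and a median of 0.20, or -0.00023 without wild-type DSS 1, 0.33 with wild-type DSS 3 left out and 0.12 with Parp1-/- DSS 3 left out, with Anxa8 and the chaperone Clu, at 0.32 ± 0.17, higher without overlap. The growth factor Hbegf differed by 0.75 ± 0.35. Stem cell and Wnt target genes had a median of 0.02 over 17 genes and no member without overlap. Rnf43, a Wnt receptor antagonist, differed by 0.94 ± 0.40, and by 0.52 ± 0.25 without wild-type DSS 1, Tnfrsf19, a Wnt target, by 0.27 ± 0.17, and the crypt marker Olfm4 by -0.36 ± 0.20. Enteroendocrine markers had a median of 0.27, or 0.05 without wild-type DSS 1 and 0.05 without Parp1-/- DSS 1, with the early factors Neurog3 and Neurod1 lower without overlap, at -0.31 ± 0.16 and -0.32 ± 0.17. Tuft cell markers had a median of 0.04, with Trpm5, the cation channel of tuft cells, higher without overlap at 0.26 ± 0.15. Alox5ap, of leukotriene synthesis in tuft and myeloid cells, differed by -0.65 ± 0.26, from probe sets at -0.95 and -0.35, and the tuft cytokine Il25 by -0.23 ± 0.19.

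Cell cycle genes had a median near 0 with all arrays and below 0 without wild-type DSS 1. With 6 arrays the median of 22 measured members was -0.04, 7 were above 0, and no member was without overlap. On leaving out wild-type DSS 1, the median was -0.35, all 22 were below 0, beside 50.1% of all genes, and 11 were lower without overlap, beside 8.01%. Without both arrays the median was -0.52, with 18 lower without overlap, beside 16.5%. The 6-array median also moved with other arrays, to 0.20 with wild-type DSS 3 left out, -0.21 without Parp1-/- DSS 1 and 0.07 with Parp1-/- DSS 2 left out. Wild-type DSS 1 had a list mean of -0.72, together with a housekeeping mean of -1.09, and the other wild-type arrays had 0.20 and 0.36. The list mean in Parp1-/- was 0.13, -0.29 and -0.16.

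Cdk1, the kinase that drives mitosis, was at -0.39, 1.08 and 0.59 in wild type and 0.44, -0.47 and -0.09 in Parp1-/-. It differed by -0.47 ± 0.42 with all arrays and by -0.87 ± 0.31 without wild-type DSS 1. Mcm6, a subunit of the replicative helicase, was at -0.87, 0.74 and 0.54 and 0.0015, -0.0015 and -0.17, with differences of -0.20 ± 0.42 and -0.70 ± 0.13 in that order. Bub1, a kinase of the spindle checkpoint, had the smallest p of the list, at -0.10, 0.34 and 0.57 in wild type and -0.06, -0.30 and -0.37 in Parp1-/-, with differences of -0.51 ± 0.22 and -0.70 ± 0.15. Plk1 differed by -0.35 ± 0.26 and -0.58 ± 0.20, and Mki67, the gene of the Ki-67 antigen, by 0.05 ± 0.31 and -0.31 ± 0.12. In each of these genes wild-type DSS 2 and 3 lay above all Parp1-/- arrays and wild-type DSS 1 did not. Rrm2, a subunit of ribonucleotide reductase, had another order, with wild-type DSS 1 highest, and differed by -0.22 ± 0.17. Cdkn1a, the p53-induced inhibitor of cyclin-dependent kinases, was higher without overlap, at -0.40, 0.23 and 0.29 in wild type and 0.45, 0.63 and 0.65 in Parp1-/-, a difference of 0.54 ± 0.22.

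**Figure D4:**
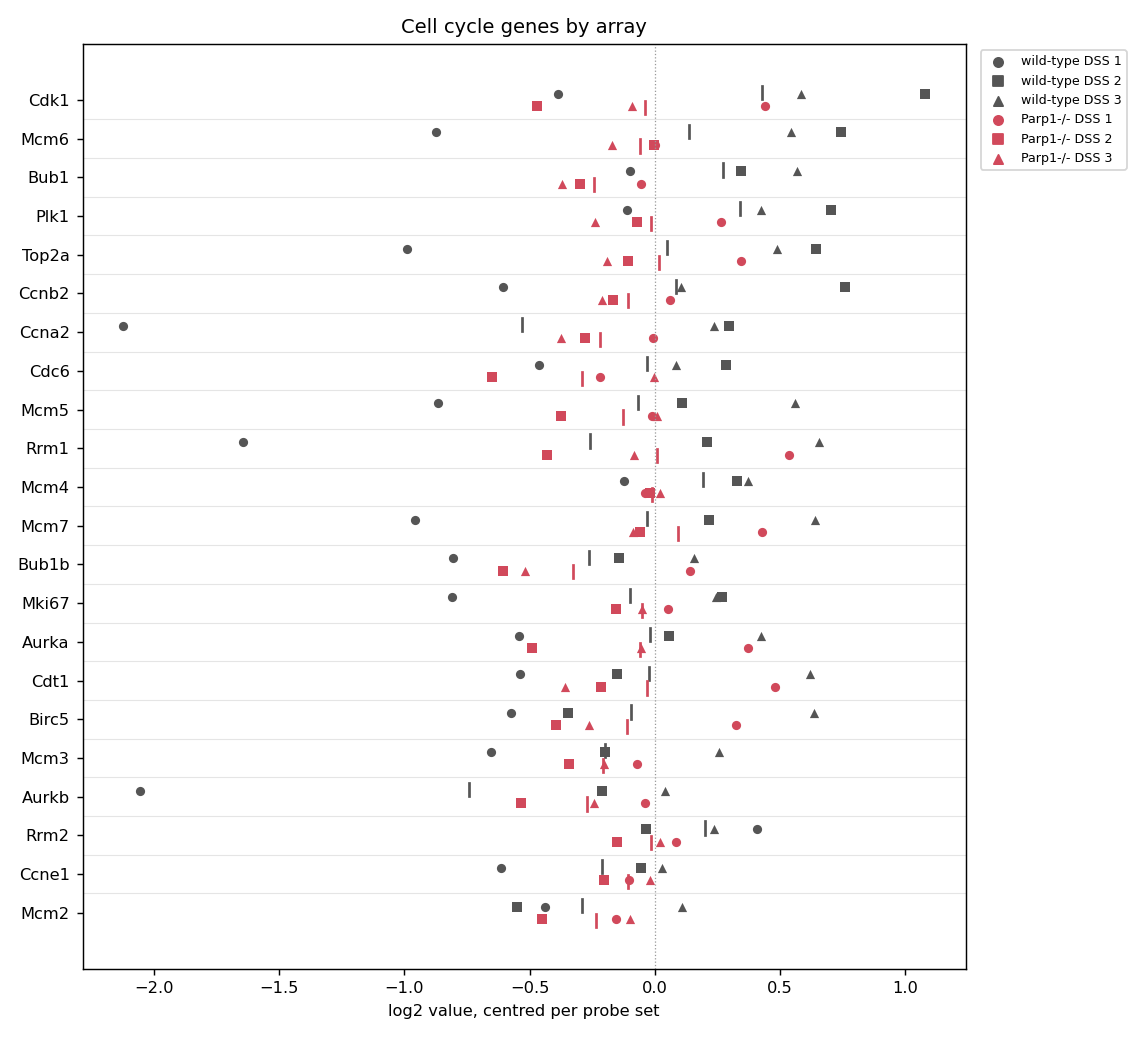
Values of the 22 measured cell cycle genes in the 6 DSS arrays (x axis, log2 value centred per probe set), ordered by their difference without wild-type DSS 1, grey for wild type, red for Parp1-/-, vertical bars for group means. Wild-type DSS 1, the grey circle, lies left of the other grey points for most genes, which places the group means close together although the other grey points lie right of the red ones in the upper 9 rows.

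Smooth muscle markers had 18 of 20 above 0 and a median of 0.83, which rested on 1 mouse. Without Parp1-/- DSS 1 the median was -0.06, and without both arrays -0.07. Des, the muscle intermediate filament, was at 3.96, -0.0006 and 0.0006 in Parp1-/- and 0.23, -0.40 and -0.13 in wild type, and Myh11, the smooth muscle myosin, at 3.98, -0.13 and -0.11 and 0.21, -0.14 and 0.24. Only Parp1-/- DSS 1 stood above the rest. Tpm2, a tropomyosin, was higher without overlap at 0.87 ± 0.47, and Synm at 0.75 ± 0.48, while its relative Tpm1 and the cardiac-type actin Actc1 differed by 0.79 ± 0.37 and -0.40 ± 0.20. Fibroblast and matrix genes had a median of 0.13, -0.07 without wild-type DSS 1, -0.17 without Parp1-/- DSS 1 and -0.37 without both arrays. Sparc, a matrix glycoprotein, was higher without overlap at 0.39 ± 0.19, the proteoglycan Dcn differed by 0.72 ± 0.37, and the collagen gene Col6a1 by -0.64 ± 0.39 from probe sets at 0.06 and -1.35. Matrix metalloproteinases and their inhibitors had 5 of 16 above 0 and a median of -0.09, or -0.25 without wild-type DSS 1, 0.01 with wild-type DSS 2 left out and 0.0032 with Parp1-/- DSS 3 left out. The stromelysin Mmp10 was at 3.06, 3.24 and 1.92 in wild type and -0.10, 2.24 and 0.40 in Parp1-/-, and the collagenase Mmp13 at 1.98, 3.39 and 2.12 and -0.01, 3.05 and 0.21. For both, Parp1-/- DSS 2 lay within the wild-type range and Parp1-/- DSS 1 and 3 far below it.

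The remaining lists held few members without overlap. Nr1d1, the clock repressor REV-ERB alpha, was higher, at -0.46, -0.01 and -0.06 in wild type and 0.25, 0.32 and 0.49 in Parp1-/-, a difference of 0.53 ± 0.18, in a clock list whose median was 0.04. Bhlhe40 and Npas2, other clock factors, differed by 0.74 ± 0.38 and 0.40 ± 0.21. Tef, a clock output factor, was lower at -0.19 ± 0.14, without overlap only as the average of its probe sets. Each of those overlapped, at -0.21 and -0.17. Gpx2, the gut glutathione peroxidase, was lower at -0.70 ± 0.28 and the superoxide dismutase Sod1 higher at 0.66 ± 0.35, both without overlap, with catalase, Cat, at 0.94 ± 0.49, in an oxidative stress list at 0.31, or 0.05 without wild-type DSS 1. Clps, pancreatic colipase, was higher without overlap at 0.83 ± 0.26 while the pancreas list had a median of -0.12, or 0.05 without wild-type DSS 1, with the elastase Cela1 at 0.79 ± 0.49 and the trypsin Prss2 at -0.37 ± 0.23. Cyp2b10, a drug-metabolising cytochrome, was lower without overlap at -0.68 ± 0.42, or at -0.18 without wild-type DSS 1. Gstt1, a glutathione transferase, differed by 1.18 ± 0.46, or 0.78 ± 0.39 without wild-type DSS 1. Lists of endothelium, enteric nerve and glia, squamous epithelium and skeletal muscle had medians of 0.02, 0.15, -0.09 and -0.16. Without wild-type DSS 1 the squamous and skeletal medians were 0.04 and -0.03, and without Parp1-/- DSS 1 the nerve median was -0.11. Flt1, a receptor for vascular growth factor, differed by -0.23 ± 0.15, the endothelial claudin Cldn5 by 0.30 ± 0.23 and the lymphatic Lyve1 by 0.42 ± 0.43. Snap25, of the synapse, differed by 0.60 ± 0.35, the glial cell line receptor Ret by 0.32 ± 0.20 and the glial filament Gfap by -0.27 ± 0.29. Lor, loricrin of cornified epithelium, was higher without overlap at 0.39 ± 0.18. Those of hypoxia and glycolysis, the unfolded protein response and p53 targets had 0.35, 0.38 and 0.20, and 0.04, 0.02 and 0.05 without wild-type DSS 1. Hk2, a hexokinase, differed by 0.93 ± 0.51, Atf4, a factor of the stress response, by 0.49 ± 0.26, the chaperone Pdia6 by 0.62 ± 0.43, and Mdm2, the p53 antagonist, by 0.97 ± 0.54. Without wild-type DSS 3 the hypoxia, oxidative stress and p53 medians were 0.60, 0.54 and 0.37, and without Parp1-/- DSS 1 that of oxidative stress was 0.17. Only 2 of 11 erythrocyte markers were measured, at -0.26 ± 0.18 for the anion exchanger Slc4a1 and -0.25 ± 0.24 for the membrane protein Epb42, and -0.12 ± 0.13 and -0.01 ± 0.13 without wild-type DSS 1.

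**Figure D5:**
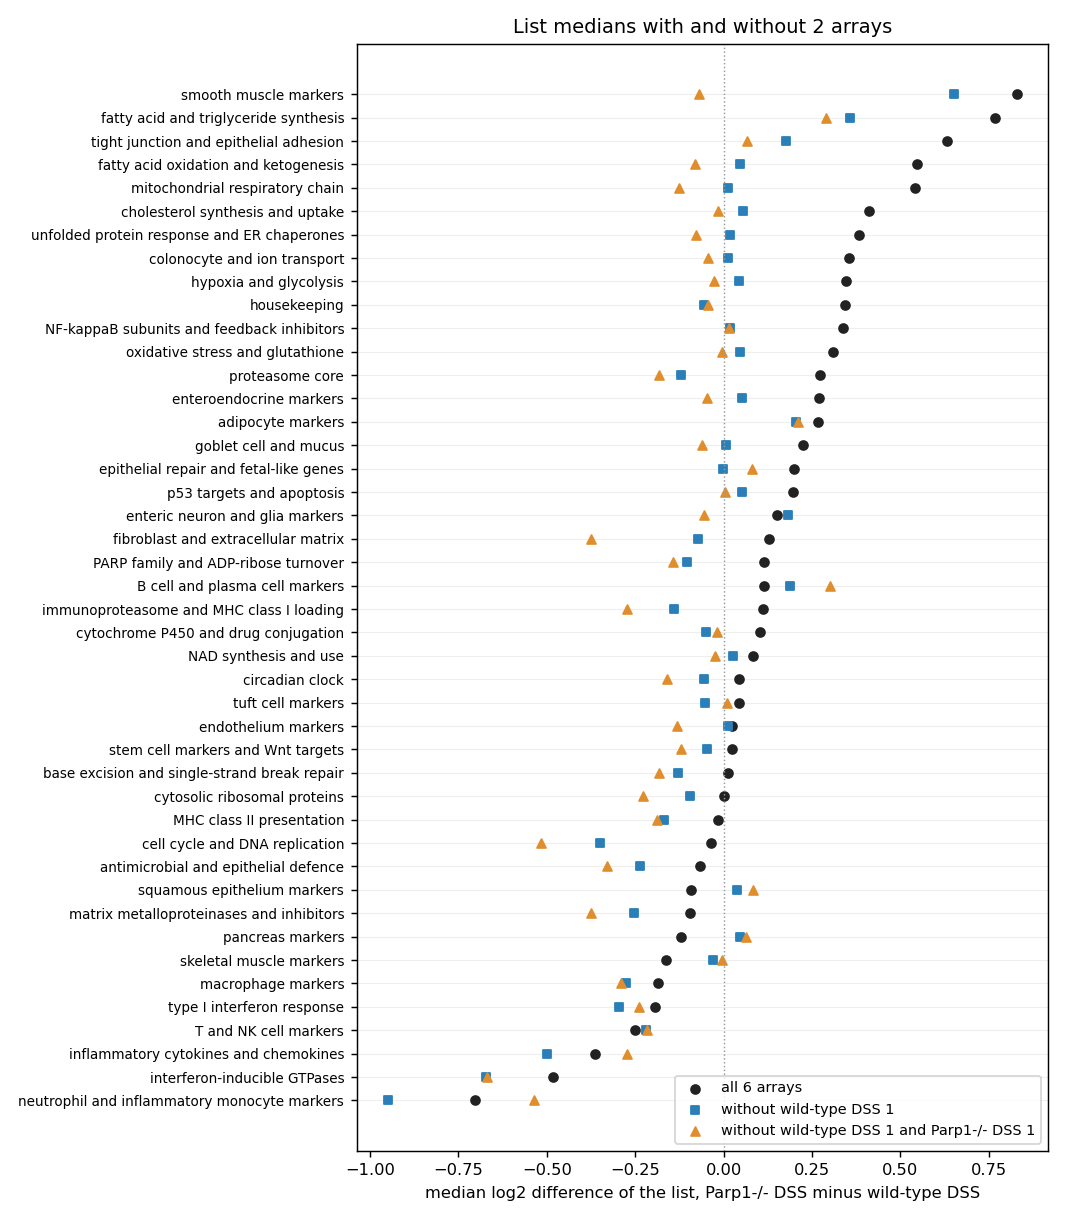
Median difference of each list with at least 10 measured genes (x axis, log2, Parp1-/- DSS minus wild-type DSS) from all 6 arrays, without wild-type DSS 1 and without both arrays that stood apart. Fatty acid synthesis, tight junction, adipocyte and B cell lists are among those that stay right of 0 under all 3, and the neutrophil, GTPase, cytokine, macrophage and T and NK lists among those that stay left of it, while most epithelial and metabolic lists move to near 0.

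Several of the lower genes named by the rule had probe sets whose differences were unlike in size or sign. Hnrnpk, an RNA-binding protein, was at 0.79, 0.84 and 0.39 in wild type and -0.77, -0.10 and -0.38 in Parp1-/-, a difference of -1.09 ± 0.23, but its 3 probe sets differed by -2.67, -0.60 and -0.01. Rpl13, a ribosomal protein, was at -1.06 ± 0.33 from probe sets at -1.80 and -0.32. Tubb5, a beta tubulin, differed by -1.04 ± 0.22 without wild-type DSS 1, and its probe sets by -1.54 and 0.26 with all arrays. Tuba1b, an alpha tubulin, was at 1.35, 0.94 and 0.65 and -0.40, 0.33 and -0.47, a difference of -1.16 ± 0.29. Wild-type DSS 1 was its highest array and Parp1-/- DSS 2 the highest of its group, as in lower probe sets described further below. Btnl2, a butyrophilin-like regulator of T cells, differed by -1.03 ± 0.23 without wild-type DSS 1. Tuba1b and Btnl2 each had a single probe set, so no other probe set could be set beside it. Ribosomal protein genes as a list had a median of 0.0013, or -0.23 without both arrays, and their 2 members lower without overlap, Rps9 and Rpl4, each had probe sets of unlike size, at -1.45 and -0.01 for Rps9 and -2.04 and 0.82 for Rpl4.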

How the data were processed

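Total RNA from whole colon was measured on 1-colour Affymetrix arrays, per the labels' protocols. The deposited table holds log2 values for 31693 probe sets, taken here as base 2 with larger values for more RNA. The log base, direction, normalization and software stand in no source used here. Each probe set has a median of 0 over the 12 arrays, to within 5e-07, a step the authors made before deposit. The platform annotation gave 1 symbol for 22586 probe sets, several for 1756 and none for 7351. Those with 1 symbol were averaged by gene, giving 21314 genes, of which 1031 had several probe sets.

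The 6 DSS arrays were fitted with limma 3.58.1 (lmFit and eBayes, R 4.3.3), with Benjamini-Hochberg adjustment over all genes, no floor on low values and no batch term, after a check on simulated data. The number of arrays limits the precision, and depth has no counterpart here. The members and the 45 gene lists were chosen with earlier results of these data known. With fewer than 5 called genes in a direction, the 10 of smallest p without overlap and with a difference of at least 1 were named, 6 more per direction without wild-type DSS 1, and up to 3 of smallest p per list, passing over predicted genes, receptor genes and immune segments. Other members were named after their values were seen, for their role or for groups that did not overlap. Motifs were searched in RefSeq promoters of GRCm38.p6 (Python 3.11.15, pandas 2.3.3). The alternatives were other normalizations, variance models and array weights, single and paired arrays left out, and probe sets kept apart. Weights estimated gene by gene were added after the data were seen.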

Additional observations from a re-analysis of the deposited data

How the results depend on the processing

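Genes named by the rule kept their direction under the alternatives run on gene averages, apart from 11 values in 8 genes whose groups overlapped. Without wild-type DSS 1 and Parp1-/- DSS 1 these were Pcna at -0.0069, Il25 at 0.0096, Lyve1 at -0.040, Pdia6 at -0.084 and Gfap at 0.023. Gfap ranged from -0.53 to 0.029 with single arrays left out, the latter without wild-type DSS 1, and was at 0.015 there after quantile normalization. Array weights gave Snap25 -0.15, Col6a1 0.087 and Rrm2 0.0056, and gene-by-gene weights Snap25 -0.041. These counts leave out the alternative with probe sets kept apart. There, some named genes had a probe set of the other sign, among them Cdh1 at 0.57, Rpl4 at 0.82 and Tubb5 at 0.26. Of those named for their role, Parp2, Parp14, Rela, Nfkbia, Foxp3 and Mki67 turned sign without wild-type DSS 1, and Dgat1 when Parp1-/- DSS 1 was left out as well. Myh11 was at -0.22 without Parp1-/- DSS 1 alone, and Mcm6 at 0.11 and 0.0077 without wild-type DSS 2 or 3. Tnf, Psmb8, Gbp7, Gbp10, Nampt and Fads1 turned sign without wild-type DSS 2, and of these and the above Nampt, Fads1, Foxp3, Mki67 and Parp2 also without at least 1 other array. Csf1r was at 0.0053 without Parp1-/- DSS 3. The 5164 genes called with array weights, 2838 higher and 2326 lower, include 116 of the named genes. No other alternative called a gene, and without wild-type DSS 3 the smallest limma adjusted p was 0.151, with groups that did not overlap for 4741 higher and 4139 lower genes. Of the list medians, quantile normalization took T and NK cells to -0.32. Without wild-type DSS 1 and Parp1-/- DSS 1, fibroblast and matrix genes were at -0.37, cell cycle at -0.52, the respiratory chain at -0.13, ribosomal proteins at -0.23, the clock at -0.16, fatty acid synthesis at 0.29, fatty acid oxidation at -0.080 and the unfolded protein response at -0.078. With single arrays left out, tuft cell markers ranged from -0.053 to 0.18, ribosomal proteins from -0.094 to 0.27 and the clock from -0.055 to 0.24. For these values the cause was not tested. No paired analysis was possible because the labels give no replicate numbers shared between groups. With 3 arrays a group and centred values, neither levels nor detection above background could be judged.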

Other observations

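Probe sets of the same gene often pointed in different directions. Of 1031 genes with more than 1 probe set, 582 had differences of opposite sign, and in 164 the differences lay at least 1 apart. Among the 52 such genes of the lists, 29 disagreed in sign and 12 by at least 1. Krt18, a keratin of simple epithelium, had a probe set at -1.49, 0.02 and 0.10 in wild-type DSS and 0.35, 0.19 and 0.31 in Parp1-/- DSS, and another at 2.05, 1.66 and 1.48 and -1.24, 0.84 and -1.32. The first was higher and the second lower in Parp1-/- DSS, both without overlap, with differences of 0.74 and -2.30. Some lower probe sets of abundant genes resembled each other by array. That of Cdh1 was at 2.69, 0.66 and 0.62 in wild type and -1.02, 0.06 and -0.89 in Parp1-/-, that of Hnrnpk at 2.39, 2.32 and 1.22 and -1.59, 0.29 and -0.77, and that of Ndrg1 at 1.75, 0.76 and 0.71 and -1.12, 0.43 and -1.62. In all 4 genes wild-type DSS 1 was highest, in Hnrnpk only narrowly, and Parp1-/- DSS 2 was the highest of its group. The lower probe set of Tubb5 did not share the first feature. It was at 0.76, 1.40 and 1.15 in wild type, with wild-type DSS 1 the lowest of its group. The other probe set of Krt18, Cdh1 and Ndrg1 had wild-type DSS 1 as its lowest array. These genes were picked after their values were seen, and the position of the probe sets within the transcripts was not analysed here.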
